A study of Mus musculus with 25 samples.

Results

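Liver of DEN-injected mice fed a control diet (DEN L-CD, 4 libraries) was compared with liver of mice on the same diet that were not injected (nonDEN L-CD, 3 libraries), to describe the change that remained in the organ months after the carcinogen. These 7 libraries were chosen by the group given in the sample labels, out of 25 in the series. Diethylnitrosamine (DEN) is a nitrosamine that hepatocytes activate to a DNA-alkylating agent, and a single dose given to infant mice, whose livers are still growing, leads to liver tumors later in life. All mice were C57BL/6J males. DEN was injected once into the peritoneum at 25 mg/kg and 2 weeks of age, the nonDEN mice received no injection, the purified control diet (CD) was fed from weaning, and tissue was taken at 36 to 39 weeks. The other groups were uninjected liver on a western diet (nonDEN L-WD, 4 libraries), and peritumoral liver (DEN PT-WD, 8) and tumors (DEN T-WD, 6) of injected mice on the western diet. The libraries are of polyadenylated RNA from pulverized whole tissue, in which fewer cells of a type and less RNA per cell cannot be told apart. In the study, tumors of DEN mice on the control diet were described as too small to be reliably dissected from the surrounding liver, so that DEN L-CD tissue may hold small tumors, and their part in the results was not tested. The labels number the samples of a group without saying which animal, litter or day each came from, so that p-values measure the spread between these samples.

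Expected counts summed to 26570081 to 28278208 per nonDEN L-CD library and to 24628880 to 29415013 per DEN L-CD library. The 13 hepatocyte markers, among them *Alb* (albumin) and *Ttr* (transthyretin), held 3084900 to 3440900 normalized counts in nonDEN L-CD and 3007200 to 3291600 in DEN L-CD, and 0 of 13 were called, so that the labelled tissue was present in all 7 libraries at overlapping levels. nonDEN L-CD replicate 1 stood apart from the other libraries of its group. Its chi-square per gene was 120 against replicate 2 and 104 against replicate 3, while replicates 2 and 3 differed by 32.6 and the DEN L-CD libraries differed from each other by 42.4 to 67.4. Which of the controls is typical of uninjected liver cannot be told from these libraries. For lists of liver processes and cell types with 4 or more calls, the calls that stood without replicate 1 are therefore counted below. Calls or log2 fold changes against replicate 1 alone are given as well. A call lost against replicate 1 alone need not mean a smaller change, because 1 library then forms the control group. No sequencing batch is named in the labels, and a batch that followed the injection cannot be told apart from it.

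A gene was called higher or lower in DEN L-CD when its edgeR p-value, adjusted over 15625 tested genes, did not exceed 0.05 and its log2 fold change reached 1 in either direction. By this rule 734 genes (4.70% of those tested) differed, of which 432 were higher (2.76%) and 302 lower (1.93%). With the adjusted p-value alone the balance turned, with 1425 genes higher (9.12%) and 1902 lower (12.2%). The 4 DEN L-CD libraries did not overlap with the 3 nonDEN L-CD libraries in 667 of the 734 genes, and in 5369 of all genes tested. Against nonDEN L-CD replicate 1 alone, 115 genes were called, and 88 of these were among the 734. Without replicate 1, 842 genes were called, and without replicate 2, 430. Values below are normalized counts, that is, expected counts divided by TMM library sizes and brought to a common scale, in the order of the replicate numbers, and fold changes are log2 of DEN L-CD over nonDEN L-CD with their standard errors (SE).

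**Figure D1:**
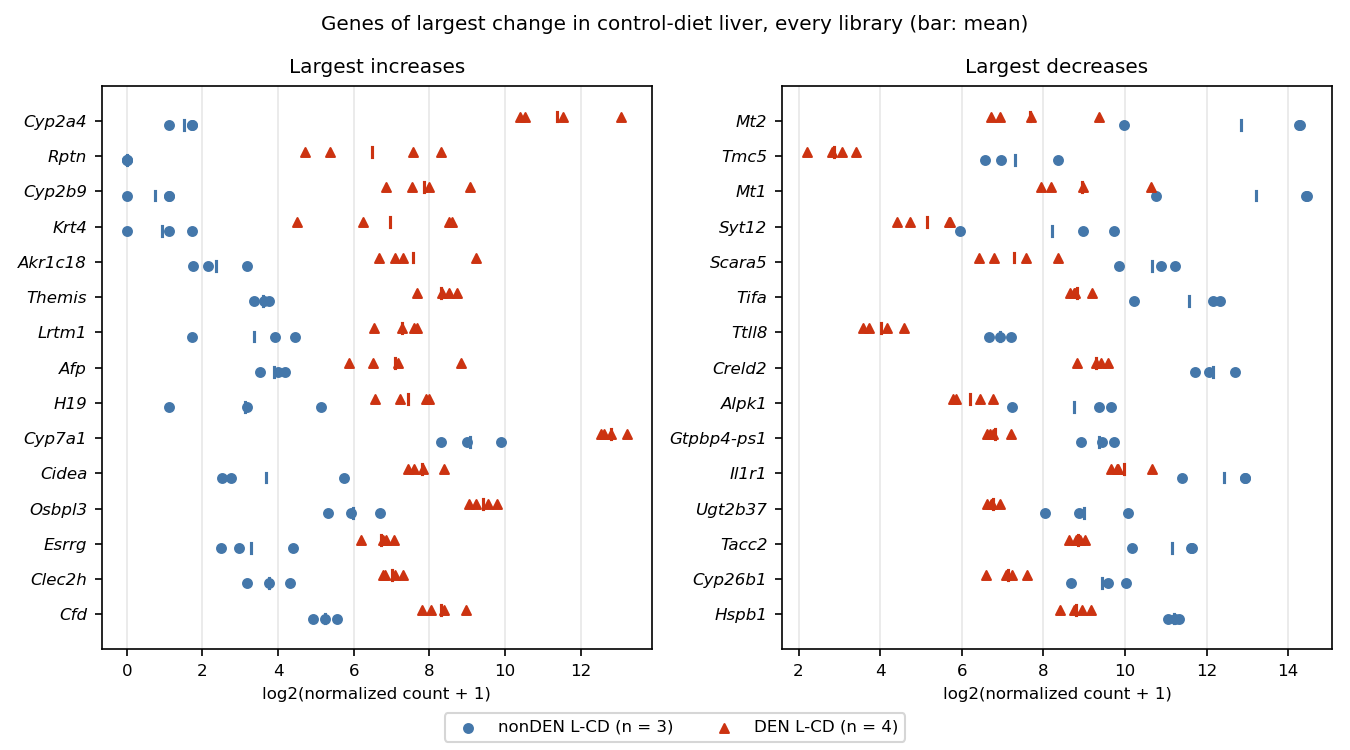
Levels of the 15 called genes of largest increase (left) and the 15 of largest decrease (right) as log2(normalized count + 1), with circles for the nonDEN L-CD libraries (n = 3), triangles for the DEN L-CD libraries (n = 4) and a bar at each group mean, ordered by the fitted fold change. Fitted log2 fold changes run from 3.13 for *Cfd* to 10.77 for *Cyp2a4* on the left and from -2.37 for *Hspb1* to -5.62 for *Mt2* on the right, and no gene shown overlaps between the groups, which the choice of genes required.

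The genes of largest increase included cytochromes P450, fetal or tumor-associated liver genes and genes of squamous epithelium, and the genes of largest decrease included metal-binding, acute phase and chaperone genes. Gene lists for 43 liver processes and cell types held 817 tested genes, of which 104 were called (12.7%), 50 higher and 54 lower. The called members were unevenly spread. The lists for acute phase proteins, cytokine responses, the unfolded protein response, metallothioneins and heat shock proteins had lower calls only, whereas the lists for lymphocytes, interferon-stimulated genes, cholesterol synthesis and female-predominant genes had higher calls only. A further 14 lists had no call, among them β-oxidation, gluconeogenesis, the urea cycle, the respiratory chain, complement and Kupffer cells. The median log2 fold change of all tested genes was 0.02.

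**Figure D2:**
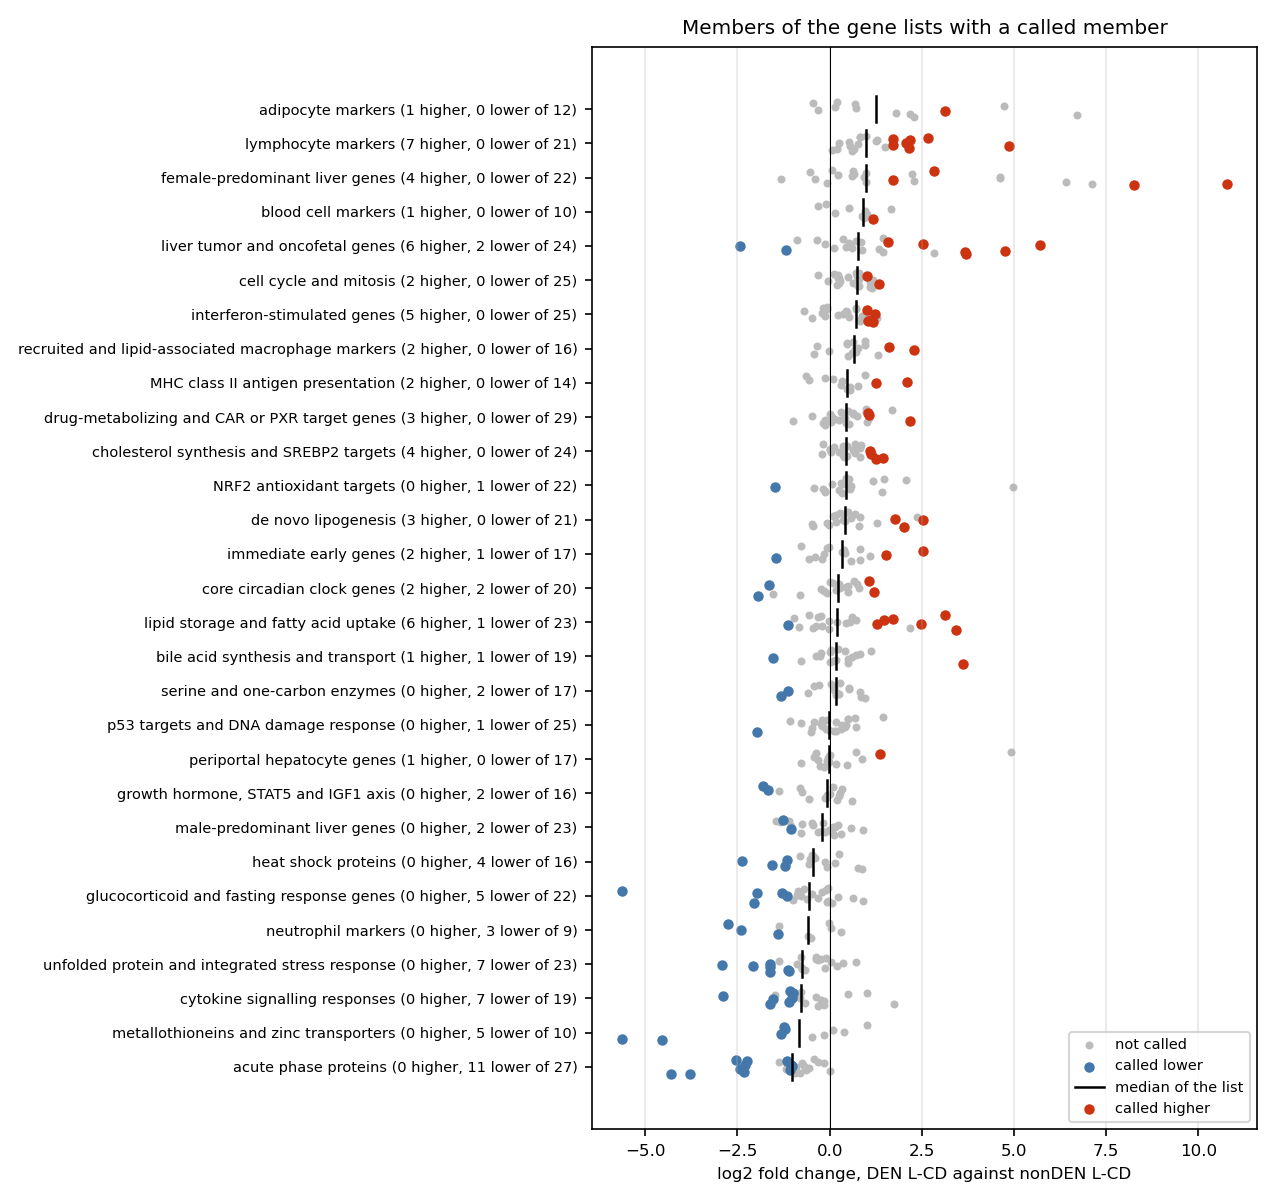
Log2 fold changes (DEN L-CD over nonDEN L-CD) of the tested members of each gene list with a called member, with 1 point a gene, called genes in red (higher) or blue (lower) and a bar at the median of the list. Acute phase proteins (median -1.02) and the unfolded protein response (median -0.75) lie mostly below 0, and lymphocyte markers (median 0.99) mostly above it.

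Several metallothionein and zinc transport genes were lower in DEN L-CD than in the controls as a group. The list summed to 63110 and 65000 normalized counts in control replicates 2 and 3, to 17400 in control replicate 1 and to 8941 to 22790 over all libraries of the series other than those 2. Metallothioneins are small cysteine-rich proteins that bind zinc and copper, and the liver makes them in response to metals, glucocorticoids and inflammation. Of 10 tested members of the list, 5 were called lower and 0 higher, and the median log2 fold change was -0.83. *Mt2* (chr8:94172664-94173568, GRCm38) had 1004, 19670 and 19950 normalized counts in nonDEN L-CD and 659.7, 122, 104 and 208 in DEN L-CD. Every DEN L-CD library was below every control, but control replicate 1 was far closer to the DEN L-CD libraries than to the other controls. The difference was a log2 fold change of -5.62 ± 1.16 (SE, edgeR adjusted p = 0.00150). Its neighbor *Mt1* (chr8:94179082-94180327) had 1723, 22320 and 22530 in nonDEN L-CD against 1597, 293, 246 and 503 in DEN L-CD, with a log2 fold change of -4.55 ± 0.99 (SE, edgeR adjusted p = 0.00227). The highest DEN L-CD library of *Mt1*, replicate 1, was only slightly under control replicate 1. Of the *Mt2* sequence, 45.8% in words of 50 bases also occurs in *Gm45774* or other genes, so that its reads are not fully separated from those of near copies. The zinc and manganese exporter *Slc30a10* had 1630, 2004 and 1802 against 784, 656, 728 and 726 (log2 fold change -1.32 ± 0.24, adjusted p = 0.000430). The zinc importer *Slc39a14*, which cytokines induce in liver, had 9014, 15950 and 17250 against 7118, 5398, 5675 and 6344 (log2 fold change -1.198 ± 0.25, adjusted p = 0.00145). In both transporters the groups did not overlap, and the controls were closer to each other than in the metallothioneins. *Slc39a10*, another zinc importer, overlapped between groups and lost its call without control replicate 2 or 3 (-0.98 to -0.999, adjusted p of 0.0176 to 0.0206). The calls of the other 4 members stood with each single library left out, but 0 of 5 stood against control replicate 1 alone, where *Mt2* was at -1.86 (adjusted p = 0.510) and *Slc30a10* at -1.16 (adjusted p = 0.0727).

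The promoters of the pair are shown because metallothionein genes are known to respond to zinc through the metal response element. The 250 bases before the RefSeq start of each gene on GRCm38.p6 were searched and are printed on the strand of the gene, up to the first base that GENCODE M21 annotates as part of the gene, with matches to TGCACNC or TGCGCNC on either strand in capitals.
Mt1, chr8:94178839-94179081 (+): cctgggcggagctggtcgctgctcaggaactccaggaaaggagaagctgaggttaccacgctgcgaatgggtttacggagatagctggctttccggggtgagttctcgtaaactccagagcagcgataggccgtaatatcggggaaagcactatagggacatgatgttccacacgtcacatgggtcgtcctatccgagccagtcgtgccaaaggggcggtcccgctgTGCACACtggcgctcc
Mt2, chr8:94172368-94172617 (+): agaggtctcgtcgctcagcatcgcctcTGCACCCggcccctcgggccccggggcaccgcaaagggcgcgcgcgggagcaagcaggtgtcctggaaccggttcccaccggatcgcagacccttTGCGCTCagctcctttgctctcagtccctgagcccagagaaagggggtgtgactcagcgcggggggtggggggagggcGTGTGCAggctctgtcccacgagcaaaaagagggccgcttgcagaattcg
*Mt1* held 1 match and *Mt2* held 3. Of the 10 list members with a promoter in the table, 7 had a match (3 of the 4 called ones). A member can have several windows, and by window 7 of 13 of the list and 21.4% of all 32851 had a match. The start site used in these livers was not measured.

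Acute phase genes, whose plasma proteins hepatocytes secrete in inflammation under interleukin-6 and interleukin-1, had calls only in the direction of a lower level in DEN L-CD. Of 27 members 11 were called lower and 0 higher, 16 were lower by the adjusted p-value alone, and the median log2 fold change was -1.02. The serum amyloid gene *Saa2* (chr7:46751790-46754313) had 984, 37060 and 48480 normalized counts in nonDEN L-CD and 3622, 613, 475 and 1178 in DEN L-CD. The groups overlapped, since control replicate 1 was below DEN L-CD replicates 1 and 4 while the other controls were far above every DEN L-CD library. The fitted difference was a log2 fold change of -4.29 ± 0.97 (SE, edgeR adjusted p = 0.00317). *Saa1*, the adjacent gene, had 3729, 50140 and 62570 against 7041, 1017, 975 and 2189, with a log2 fold change of -3.79 ± 0.95 (SE, edgeR adjusted p = 0.00642). *Serpina3n*, a protease inhibitor, had 13140, 66860 and 69040 against 16260, 6897, 7439 and 10170 (-2.29 ± 0.48 on the log2 scale, adjusted p = 0.00182). In all 3 genes control replicate 1 was below DEN L-CD replicate 1. *Steap4*, a metalloreductase, and *Il1r1*, the interleukin-1 receptor, were separated between groups. *Steap4* had 13360, 41280 and 39540 against 9691, 5176, 5236 and 6574, with a log2 fold change of -2.23 ± 0.31 (SE, edgeR adjusted p = 3.49e-05). *Il1r1* had 2680, 7853 and 7890 against 1611, 801, 889 and 907, with a log2 fold change of -2.54 ± 0.39 (SE, edgeR adjusted p = 0.000103).

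The abundant members moved less. Haptoglobin (*Hp*), which binds free hemoglobin, had 66480, 128800 and 134200 against 77480, 42560, 37670 and 51620, with a log2 fold change of -1.07 ± 0.26 (SE, edgeR adjusted p = 0.00528). *Fgg*, a fibrinogen chain, had 140900, 280200 and 284300 against 155200, 88440, 101700 and 118500 and the inter-alpha-trypsin inhibitor *Itih4* had 52060, 98150 and 102900 against 55960, 31620, 33970 and 43100, with log2 fold changes of -1.02 ± 0.31 and -1.04 ± 0.31 (SE, edgeR adjusted p = 0.0228 and 0.0194). In these 3 genes control replicates 2 and 3 were above all DEN L-CD libraries and replicate 1 was below DEN L-CD replicate 1. The call of *Hp* was lost without control replicate 2 or 3 or DEN L-CD replicate 2 or 3 (-0.90 to -0.98, adjusted p of 0.0212 to 0.0397). That of *Fgg* was lost without control replicate 2 or 3 or DEN L-CD replicate 2 or 3 (-0.86 to -0.96, adjusted p of 0.0578 to 0.115), and that of *Itih4* without control replicate 2 or 3 or DEN L-CD replicate 2 or 3 (-0.87 to -0.95, adjusted p of 0.0545 to 0.0963). The LPS-binding protein *Lbp*, the orosomucoid *Orm2* and the siderophore-binding *Lcn2* were called at -1.15 ± 0.32, -2.33 ± 0.74 and -2.44 ± 0.88 (SE, edgeR adjusted p = 0.0124, 0.0278 and 0.04996). *Lbp* lost the call without control replicate 2 or 3 (-1.004 to -1.09, adjusted p of 0.0520 to 0.0597), *Orm2* without control replicate 2 or 3 or DEN L-CD replicate 2, 3 or 4 (-1.89 to -2.27, adjusted p of 0.0640 to 0.1204) and *Lcn2* without control replicate 2 or 3 or DEN L-CD replicate 1, 2 or 3 (-1.76 to -2.40, adjusted p of 0.0978 to 0.224). Of the 11 calls, 5 stood with each single library left out (*Il1r1*, *Saa1*, *Saa2*, *Serpina3n* and *Steap4*), 11 stood without control replicate 1, 4 stood without DEN L-CD replicates 3 and 4, and 0 stood against control replicate 1 alone. Against that library *Saa2* was at 0.59 (adjusted p = 0.859), *Orm2* at 0.69 (adjusted p = 0.811) and *Lcn2* at 1.73 (adjusted p = 0.561), in the opposite direction, and *Steap4* was at -0.995 (adjusted p = 0.134).

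The *Saa1* and *Saa2* promoters are shown because the genes are close copies whose reads were only partly separable: 31.5% of the *Saa1* and 30.0% of the *Saa2* sequence is shared with other genes.
Saa1, chr7:46742981-46743230 (-): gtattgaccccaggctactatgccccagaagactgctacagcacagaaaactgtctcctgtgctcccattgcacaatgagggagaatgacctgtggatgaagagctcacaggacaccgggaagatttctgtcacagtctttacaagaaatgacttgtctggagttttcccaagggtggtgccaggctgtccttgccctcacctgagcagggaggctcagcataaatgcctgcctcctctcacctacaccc
Saa2, chr7:46751583-46751789 (+): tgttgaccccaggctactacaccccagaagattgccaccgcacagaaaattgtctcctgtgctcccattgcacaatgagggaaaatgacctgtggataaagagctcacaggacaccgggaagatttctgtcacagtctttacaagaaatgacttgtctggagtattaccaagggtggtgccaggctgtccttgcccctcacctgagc
Aligned over all 250 bases, the windows had 238 identical bases, 11 mismatches and 2 gaps (94.8% identity). Neither holds a match to TTCNNNGAA, a STAT site, which would be in capitals. A match was present for 6 of 21 acute phase genes with a listed promoter, 2 of the 9 called ones (*Itih4* and *Steap4*). By window it was in 6 of 23 of the list and 7.02% of all.

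Some genes of cytokine signalling, which carry or follow the signals that induce acute phase genes, were lower as well. Of 19 tested members 7 were called lower, 0 were called higher and 12 did not pass, with a median log2 fold change of -0.77. The oncostatin M receptor *Osmr* had 288, 629 and 661 normalized counts against 188, 171, 124 and 206, with a log2 fold change of -1.61 ± 0.31 (SE, edgeR adjusted p = 0.000927). The NF-κB cofactor *Bcl3* had 523, 1008 and 1210 against 361, 225, 278 and 402, with a log2 fold change of -1.53 ± 0.22 (SE, edgeR adjusted p = 5.04e-05). In both, all DEN L-CD libraries were below all controls and control replicate 1 was the lowest control. *Stat3*, the transcription factor of interleukin-6 signalling, had 5114, 6164 and 6544 against 3792, 2096, 2414 and 2852, with a log2 fold change of -1.09 ± 0.23 (SE, edgeR adjusted p = 0.00158), and missed the fold threshold without DEN L-CD replicate 2 (-0.98, adjusted p = 0.00836). The neutrophil chemokine *Cxcl1* had 958, 4358 and 5242 against 1050, 142, 147 and 545. DEN L-CD replicate 1 was above control replicate 1 there, although the fitted change was -2.90 ± 0.63 (SE, edgeR adjusted p = 0.00241). The kinase *Pim1*, the adhesion molecule *Icam1* and the NF-κB inhibitor *Tnfaip3* were called at log2 fold changes of -1.08 to -1.002, close to the threshold. *Pim1* lost the call without control replicate 3 or DEN L-CD replicate 2 (-0.99, adjusted p of 0.00503 to 0.00704), *Icam1* without control replicate 2 or 3 or DEN L-CD replicate 3 or 4 (-0.92 to -0.97, adjusted p of 0.00101 to 0.00226) and *Tnfaip3* without control replicate 3 or DEN L-CD replicate 2, 3 or 4 (-0.81 to -0.99, adjusted p of 0.0139 to 0.0384). *Socs3*, the feedback inhibitor of these receptors, and the leptin receptor *Lepr* were the called members of the growth hormone and STAT5 list, both lower. *Socs3* had 365, 1130 and 1236 against 460.3, 269.9, 229 and 177, with a log2 fold change of -1.68 ± 0.36 (SE, edgeR adjusted p = 0.00218), and *Lepr* had 608, 1041 and 1587 against 374, 307, 294 and 253, with a log2 fold change of -1.81 ± 0.58 (SE, edgeR adjusted p = 0.0280). The groups overlapped for *Socs3* at control replicate 1 and not for *Lepr*, whose call was lost without control replicate 2 or 3 or DEN L-CD replicate 2, 3 or 4 (-1.43 to -1.84, adjusted p of 0.0592 to 0.135). All 7 cytokine calls stood without control replicate 1, 4 stood without DEN L-CD replicates 3 and 4, and 0 stood against control replicate 1 alone. Other large decreases outside the lists included the NF-κB adaptor *Tifa*, with 1192, 4588 and 5157 against 581, 436, 398 and 426 and a log2 fold change of -2.98 ± 0.37 (SE, edgeR adjusted p = 1.19e-05), and its upstream kinase *Alpk1*, with 149.7, 654 and 805 against 108, 85.6, 57.1 and 53.7 and a log2 fold change of -2.81 ± 0.41 (SE, edgeR adjusted p = 6.06e-05).

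Several chaperones and cofactors of the endoplasmic reticulum (ER) were lower in DEN L-CD. The unfolded protein response raises such chaperones when secretory proteins misfold, and hepatocytes, which secrete most plasma proteins, express them at high level. The list also holds genes of the integrated stress response that are not ER chaperones, such as *Atf4*, *Asns* and *Trib3*, and none of those was called. Of its 23 members 7 were called lower and 0 higher, 11 were lower by the adjusted p-value alone, and the median log2 fold change was -0.75. *Creld2* (chr15:88819646-88826683), an ER stress-inducible disulfide isomerase, had 3343, 6581 and 4297 normalized counts in nonDEN L-CD and 764, 454, 686 and 623 in DEN L-CD, so that the lowest control was 4.38 times the highest DEN L-CD library. The log2 fold change of -2.91 ± 0.38 (SE, edgeR adjusted p = 1.89e-05) stood in each alternative run. *Hyou1*, an ER chaperone of the HSP110 family, had 9689, 17740 and 10000 against 3131, 2553, 2998 and 3064, with a log2 fold change of -2.09 ± 0.34 (SE, edgeR adjusted p = 0.000168) that also stood in each alternative. The abundant chaperone BiP (*Hspa5*, chr2:34771970-34777547) had 35360, 85950 and 47880 against 20480, 16450, 17140 and 19420, with a log2 fold change of -1.62 ± 0.38 (SE, edgeR adjusted p = 0.00399). Here control replicate 2, not replicate 1, was the library farthest from the DEN group, and without it *Hspa5* was at -1.18 (adjusted p = 0.0571). Grp94 (*Hsp90b1*, chr10:86690209-86705509), the disulfide isomerase *Pdia4* and the secreted factor *Manf* were likewise called and lost the call without control replicate 2, at -0.98 (adjusted p = 0.0191), -0.82 (adjusted p = 0.0248) and -1.09 (adjusted p = 0.0594). *Sdf2l1*, a BiP cofactor, had 1442, 2310 and 1165 against 636, 324, 573 and 620.2, with a log2 fold change of -1.61 ± 0.33 (SE, edgeR adjusted p = 0.00166). All 7 calls stood without control replicate 1, and 2 of 7 (*Creld2* and *Hyou1*) stood against it alone.

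The promoters of *Creld2* and *Hsp90b1* are shown because they hold the ER stress response element, CCAAT and CCACG with 9 bases between them, given in capitals. The motif was searched on both strands and was chosen after the values were seen.
Creld2, chr15:88819396-88819645 (+): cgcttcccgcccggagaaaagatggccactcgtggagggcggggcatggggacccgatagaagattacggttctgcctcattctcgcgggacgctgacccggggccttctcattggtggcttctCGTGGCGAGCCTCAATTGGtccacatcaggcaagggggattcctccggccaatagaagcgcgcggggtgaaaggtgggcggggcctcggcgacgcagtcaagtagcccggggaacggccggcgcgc
Hsp90b1, chr10:86705510-86705694 (-): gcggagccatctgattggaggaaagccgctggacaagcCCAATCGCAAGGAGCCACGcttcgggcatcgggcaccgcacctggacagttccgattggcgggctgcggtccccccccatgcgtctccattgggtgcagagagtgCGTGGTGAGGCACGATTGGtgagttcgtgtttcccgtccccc
*Creld2* held 1 match, 126 bases before its start, and *Hsp90b1* held 2, the nearer of them 107 bases before its start. Of 21 list members with a listed promoter, 6 had a match (*Calr*, *Creld2*, *Dnajc3*, *Hsp90b1*, *Hspa5* and *Pdia6*), among them 3 of the 5 called. By window 6 of 22 of the list and 0.113% of all had a match.

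Some heat shock proteins, which fold proteins under stress, were lower in DEN L-CD, and control replicate 1 was close to the other controls for 3 of the 4 called genes. Of 16 members, which include the mitochondrial chaperones *Hspd1* and *Hspe1* and the ER chaperone *Serpinh1*, 4 were called lower and 0 higher, and 10 were lower by the adjusted p-value alone. *Hsp90aa1*, the inducible HSP90, had 24940, 26280 and 28390 normalized counts in nonDEN L-CD and 9342, 8391, 9248 and 8817 in DEN L-CD, a log2 fold change of -1.57 ± 0.20 (SE, edgeR adjusted p = 1.47e-05). The small heat shock protein *Hspb1* had 2391, 2131 and 2581 against 429, 337, 569 and 491, a log2 fold change of -2.37 ± 0.31 (SE, edgeR adjusted p = 2.05e-05). In both the 3 controls were close together, and the lowest of them was 2.67 and 3.74 times the highest DEN L-CD library. Of their sequence 47.5% and 50.1% occurs in other genes, mainly *Gm12346* and the pseudogene *Hsp25-ps1*. *Hsph1*, an HSP110 chaperone, had 3473, 3220 and 2659 against 1164, 1392, 1232 and 1613, with a log2 fold change of -1.21 ± 0.20 (SE, adjusted p = 0.000252). *Hspb8* had 6707, 8803 and 9986 against 4580, 3675, 3078 and 3982, with a log2 fold change of -1.15 ± 0.18 (SE, adjusted p = 9.76e-05). All 4 calls stood with each single library left out, and 3 of 4 stood against control replicate 1 alone (*Hsp90aa1*, *Hspb1* and *Hsph1*). The heat shock element was searched on both strands as GAA, TTC and GAA or TTC, GAA and TTC with 2 bases between each. It was found for 2 of 11 list members with a listed promoter, 0 of the 3 called ones. By window it was in 2 of 16 of the list and 153 of all 32851, and it was also chosen after the values were seen.

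**Figure D3:**
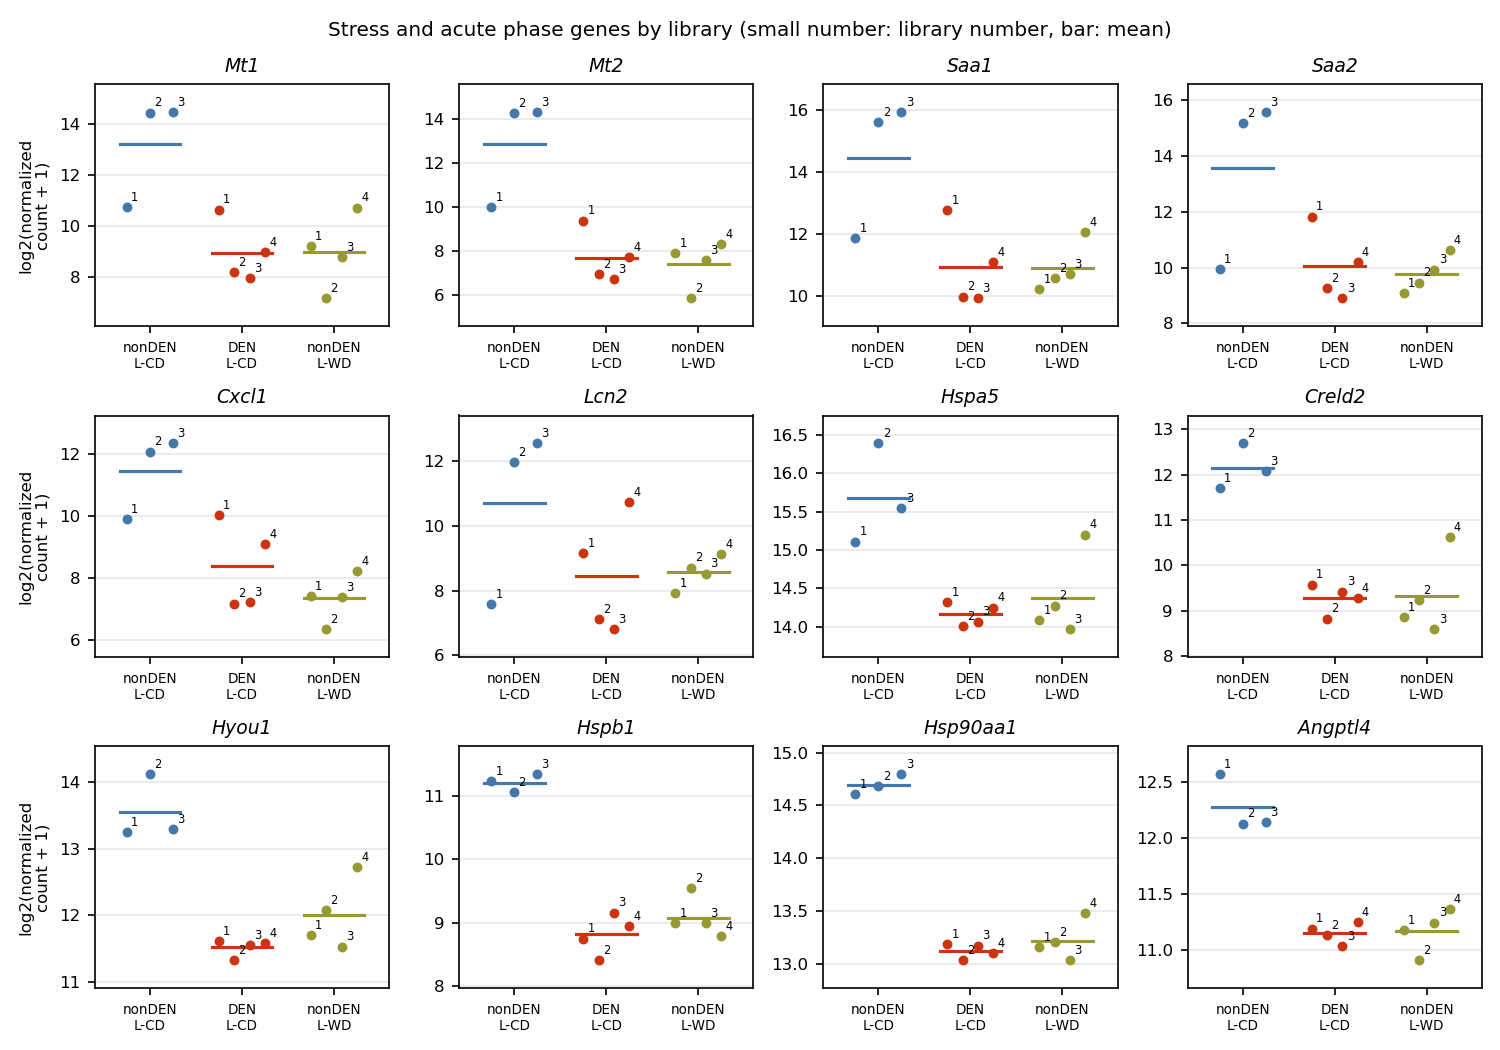
Levels of 12 metallothionein, acute phase, chemokine, chaperone and fasting genes as log2(normalized count + 1) in the nonDEN L-CD (n = 3), DEN L-CD (n = 4) and nonDEN L-WD (n = 4) libraries, with 1 point a library beside its replicate number and a line at the group mean. For *Mt2* and *Saa2* control replicate 1 (1004 and 984 normalized counts) lies near the DEN L-CD libraries, while for *Creld2* and *Hspb1* all 3 controls lie above them.

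Some of these genes were also low in uninjected liver on the western diet. *Mt2* had 55.8 to 315 normalized counts over the 4 nonDEN L-WD libraries, *Saa2* 544 to 1587, *Steap4* 4286 to 8522, *Creld2* 385 to 1581 and *Hspb1* 441 to 744. These ranges lie near or overlap those of DEN L-CD, and nonDEN L-CD held the higher level of the uninjected groups for these genes, except in control replicate 1 for *Saa2*. The whole acute phase list summed to 631660 to 1246400 in nonDEN L-WD, and its highest library there was above control replicate 1 (1188100). Only levels are given, because a contrast of diets would share the nonDEN L-CD libraries.

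Of 22 glucocorticoid and fasting response genes 5 were called lower and 0 higher (median -0.55), and by the adjusted p-value alone 5 were lower and 1 higher. *Fkbp5*, a chaperone of the glucocorticoid receptor that the hormone induces, had 1954, 3359 and 4551 normalized counts against 859, 853, 674 and 805, with a log2 fold change of -2.04 ± 0.35 (SE, edgeR adjusted p = 0.000305). The groups did not overlap, and nonDEN L-WD had 754 to 964. *Angptl4*, an inhibitor of lipoprotein lipase that rises in fasting, had 6080, 4480 and 4526 against 2332, 2240, 2096 and 2431, with a log2 fold change of -1.14 ± 0.18 (SE, edgeR adjusted p = 0.000157), although without control replicate 1 it was at -0.998 (adjusted p = 0.00106). The cell cycle inhibitor *Cdkn1a* (p21), also a p53 target, had 91.2, 997 and 535 against 149, 111, 94.7 and 203, with a log2 fold change of -1.96 ± 0.49 (SE, edgeR adjusted p = 0.00705). Control replicate 1 had the lowest value of all 7 libraries there, and without control replicate 2 the change was -1.17 (adjusted p = 0.137). *Cdkn1a* was the only called member among 25 p53 and DNA damage genes, beside 4.70% of all tested genes called, and the median of that list was -0.009. *Mt2*, above, and *Gadd45b*, called at -1.29 ± 0.42 and lost without control replicate 1 or 2 or DEN L-CD replicate 2, 3 or 4 (-0.88 to -1.33, adjusted p of 0.0523 to 0.237), complete the 5. Of these calls 3 stood without control replicate 1 and 1 (*Angptl4*) against it alone.

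Of 20 clock genes 2 were called higher and 2 lower. *Arntl* (BMAL1), the activator of the circadian loop, had 90.1, 221 and 110.0 normalized counts against 39.2, 42.2, 27.9 and 35.4, with a log2 fold change of -1.95 ± 0.40 (SE, edgeR adjusted p = 0.00145). *Nfil3*, a repressor of D-box genes, had 812, 1286 and 1290 against 455, 319, 259.8 and 421, with a log2 fold change of -1.63 ± 0.20 (SE, edgeR adjusted p = 1.22e-05). *Per3*, a repressor of the loop, had 399, 147 and 249 against 508, 689, 647 and 581, with a log2 fold change of 1.19 ± 0.27 (SE, edgeR adjusted p = 0.00335), and the deubiquitinase *Usp2* had 652, 154 and 410.1 against 696, 1133, 755 and 814, with a log2 fold change of 1.07 ± 0.31 (SE, edgeR adjusted p = 0.0165). No gene of the 4 overlapped between the groups, and control replicate 2 was the control farthest from the DEN group in *Arntl*, *Per3* and *Usp2*. All 4 calls stood without control replicate 1, and 1 stood against it alone (*Nfil3*). *Per3* was not called without control replicate 2 (0.91, adjusted p = 0.0339), nor was *Usp2* without control replicate 2 or 3 or DEN L-CD replicate 2 (0.68 to 1.08, adjusted p of 0.0515 to 0.0992). The time of day at which each animal was killed is not given in the sources used here, and its part in these values was not tested. The E-box CACGTG was found for 5 of 17 clock genes with a listed promoter, 0 of the 4 called ones. By window it was in 6 of 22 of the list and 6.02% of all.

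Very large increases were seen in a pair of cytochromes P450 that female mouse liver expresses more than male liver. In mice this sex difference follows the pattern of growth hormone release acting through STAT5b. *Cyp2a4* (chr7:26307169-26315088), a steroid hydroxylase, had 1.17, 2.30 and 2.29 normalized counts in nonDEN L-CD and 1467, 1351, 2943 and 8562 in DEN L-CD. Only 5 counts over the 3 control libraries stood against these, so that the ratio of means was 1860 with a 95% counting interval of 797 to 5730, which covers counting error only. The edgeR adjusted p was 0.000226. *Cyp2b9* (chr7:26173411-26210661) had 1.17, 1.15 and 0 against 187, 253, 114 and 538, with 2 control counts in all and a ratio of 355 (98.2 to 2930, edgeR adjusted p = 0.00203). In both genes DEN L-CD replicate 4 was the highest library, and every DEN L-CD library exceeded every control. Of the *Cyp2a4* sequence 38.8% occurs in other genes, mainly *Cyp2a5*, and *Cyp2a5*, a coumarin hydroxylase, was itself at 4326, 2524 and 4104 against 9911, 18100, 24080 and 13950. The *Cyp2a5* call (2.18 ± 0.71, SE, edgeR adjusted p = 0.0321) was lost without control replicate 1, 2 or 3 or DEN L-CD replicate 2 or 3 (1.94 to 2.30, adjusted p of 0.0585 to 0.138).

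Of the 22 tested female-predominant genes 4 were called higher and 0 lower (median 0.99). Besides the P450 pair these were the peroxisomal fatty acyl transporter *Abcd2*, with 119, 181 and 81.3 against 762, 1113, 908 and 831 and a log2 fold change of 2.83 ± 0.60 (SE, edgeR adjusted p = 0.00193), and *Cyp2c39*, with 25.7, 24.2 and 13.8 against 70.0, 109.6, 52.2 and 50.1 and a log2 fold change of 1.73 ± 0.42 (SE, edgeR adjusted p = 0.00530). All 4 calls stood with each single library left out, and 0 stood against control replicate 1 alone, where *Cyp2a4* was at 11.45 (adjusted p = 0.0743) and *Abcd2* at 2.93 (adjusted p = 0.134). Of 23 male-predominant genes 2 were called lower and 0 higher (median -0.22). *Elovl3*, a fatty acid elongase, had 6264, 4366 and 2729 against 2122, 2115, 1980 and 2326, with a log2 fold change of -1.06 ± 0.28 (SE, edgeR adjusted p = 0.00945), and was at -0.74 (adjusted p = 0.0760) without control replicate 1. *C4a* (sex-limited protein) was at -1.28 ± 0.31 (SE, edgeR adjusted p = 0.00583) and at -1.002 (adjusted p = 0.0503) without control replicate 3. The male-predominant list as a whole summed to 1375300 to 1909300 normalized counts in nonDEN L-CD and 959510 to 1489500 in DEN L-CD, ranges that overlap. The female-predominant list summed to 5735.8 to 7093.1 in nonDEN L-CD, 8622.8 to 11015 in nonDEN L-WD and 10058 to 17119 in DEN L-CD. The nonDEN L-WD and DEN L-CD ranges overlap, and both lie above that of nonDEN L-CD. In nonDEN L-WD *Cyp2a4* averaged 115 normalized counts (SD 204), against 1.92 in nonDEN L-CD. *Hsd17b6*, a steroid dehydrogenase counted among the periportal genes, rose from 1261, 921 and 692 to 2373, 2954, 2274 and 2220 (1.36 ± 0.32, SE, edgeR adjusted p = 0.00450).

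Fetal and tumor-associated genes of the liver were partly raised. Such genes are silenced after birth and are often expressed again in hepatocellular tumors. Of 24 tested members 6 were called higher and 2 lower, with a median log2 fold change of 0.78. *Afp* (alpha-fetoprotein, chr5:90490737-90508907), the main plasma protein of the fetus, had 10.5, 14.95 and 17.2 normalized counts in nonDEN L-CD and 142, 57.8, 89.8 and 453 in DEN L-CD, a log2 fold change of 3.69 ± 0.94 (SE, edgeR adjusted p = 0.00724). The imprinted non-coding RNA *H19* (chr7:142575529-142578143) had 33.9, 1.15 and 8.02 against 239.7, 147, 93.5 and 255, a log2 fold change of 3.68 ± 0.91 (SE, edgeR adjusted p = 0.00595). *Akr1c18*, a progesterone-reducing enzyme, had 2.34, 3.45 and 8.02 against 136, 101, 155 and 606, a log2 fold change of 5.71 ± 1.497 (SE, edgeR adjusted p = 0.00888). In these 3 genes the groups did not overlap and DEN L-CD replicate 4 was the highest library, as it was for *Cyp2a4* and *Cyp2b9*. In nonDEN L-WD the levels were 16.1 to 21.5 for *Afp*, 19.2 to 69.1 for *H19* and 0 to 5.15 for *Akr1c18*, all under the lowest DEN L-CD library. The desaturase *Scd2* had 119, 137 and 156 against 530.3, 453, 795 and 1405, with a log2 fold change of 2.53 ± 0.58 (SE, edgeR adjusted p = 0.00365), and the axon guidance receptor *Robo1* had 158, 101 and 209.6 against 451, 519, 413 and 486, with a log2 fold change of 1.58 ± 0.26 (SE, edgeR adjusted p = 0.000234). The mean of *Robo1* in nonDEN L-WD was 296 (SD 57.8), between those of nonDEN L-CD (156) and DEN L-CD (467). *Igf2bp3*, an RNA-binding protein of fetal tissue, had 0 counts in the controls and 2.12, 1.21, 6.07 and 3.66 in DEN L-CD. Its ratio is at least 2.83, computed against 3 counts over the group, and its call was lost without control replicate 1, 2 or 3 or DEN L-CD replicate 3 (4.30 to 4.77, adjusted p of 0.0612 to 0.0887). The 2 members called lower were *Lcn2*, above, and the imprinted gene *Peg3*, with 282, 383 and 251 against 98.6, 145, 145 and 149 and a log2 fold change of -1.19 ± 0.17 (SE, edgeR adjusted p = 4.85e-05), which was at -0.99 (adjusted p = 0.000989) without control replicate 2. Against control replicate 1 alone the log2 fold changes were 6.68 for *Akr1c18*, 4.14 for *Afp*, 2.45 for *H19*, 2.75 for *Scd2*, 1.57 for *Robo1* and 4.78 for *Igf2bp3*. For *Peg3* the value was -1.06, and for *Lcn2* it was 1.73, in the opposite direction. Without control replicate 1, 7 of 8 calls stood. Without DEN L-CD replicates 3 and 4, 4 of 8 stood (*Peg3*, *Robo1*, *H19* and *Lcn2*).

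**Figure D4:**
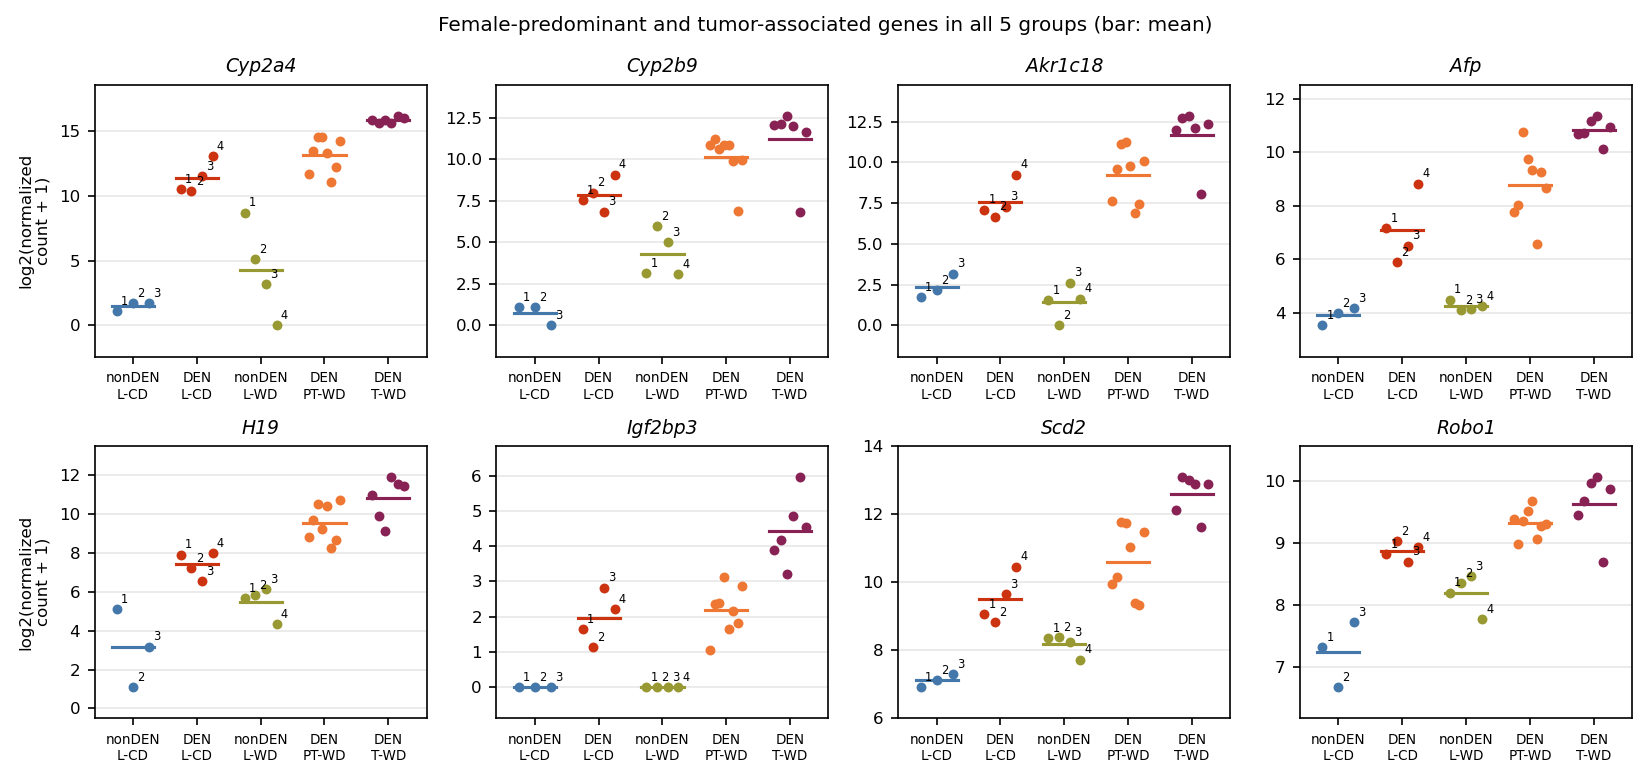
Levels of 8 female-predominant and tumor-associated genes as log2(normalized count + 1) in the nonDEN L-CD (n = 3), DEN L-CD (n = 4), nonDEN L-WD (n = 4), DEN PT-WD (n = 8) and DEN T-WD (n = 6) libraries, with 1 point a library and a line at the group mean. In each of the 8 genes all 4 DEN L-CD libraries lie above the 3 nonDEN L-CD libraries, and *Afp* (16.1 to 21.5 normalized counts) and *Akr1c18* (0 to 5.15) stay low in nonDEN L-WD.

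Of 25 cell cycle genes 2 were called higher and 0 lower, beside 2.76% of all tested genes called higher, and the median log2 fold change was 0.74. The list summed to 2655 to 3445 normalized counts in nonDEN L-CD and 3490 to 4410 in DEN L-CD, ranges that do not overlap, and no test of the sum was run. *Ccne2* (cyclin E2) had 46.8, 41.4 and 28.6 normalized counts against 96.5, 111, 87.4 and 97.7, with a log2 fold change of 1.33 ± 0.22 (SE, edgeR adjusted p = 0.000191), and the replication helicase subunit *Mcm5* was at 1.01 ± 0.30 (SE, edgeR adjusted p = 0.0174) and lost the call without control replicate 1 or 2 or DEN L-CD replicate 1 or 2 (0.93 to 1.05, adjusted p of 0.0388 to 0.0587). Among immediate early genes *Myc* had 77.2, 56.4 and 125 against 193, 679.5, 926 and 203, with a log2 fold change of 2.53 ± 0.59 (SE, edgeR adjusted p = 0.00393) and 2 DEN L-CD libraries far above the other 2. *Egr2* was at 1.52 ± 0.47 (SE, edgeR adjusted p = 0.0245) and lost the call without control replicate 1, 2 or 3 or DEN L-CD replicate 2 (1.30 to 1.61, adjusted p of 0.0587 to 0.0815), and *Junb*, an AP-1 subunit, was lower, with 872, 1436 and 1831 against 924, 339, 372 and 389 and a log2 fold change of -1.44 ± 0.35 (SE, edgeR adjusted p = 0.00473).

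Bile acid synthesis showed 1 large increase. *Cyp7a1* (chr4:6265612-6275633), the rate-limiting enzyme that converts cholesterol to bile acids, had 953, 314 and 505 normalized counts in nonDEN L-CD and 5914, 7106, 9534 and 6309 in DEN L-CD. The lowest DEN L-CD library was 6.20 times the highest control, and the log2 fold change of 3.61 ± 0.45 (SE, edgeR adjusted p = 1.25e-05) stood in each alternative, against control replicate 1 alone too, at 2.93 (adjusted p = 0.0185). In nonDEN L-WD *Cyp7a1* had 5555 to 12643. The sodium and bile acid transporter *Slc10a2* was lower, with 2798, 6492 and 5870 against 1844, 1663, 1851 and 1577 and a log2 fold change of -1.54 ± 0.23 (SE, edgeR adjusted p = 6.24e-05). No other member of the 19 in the list was called.

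Cholesterol synthesis genes, which SREBP2 induces when cells lack sterol, had 4 of 24 members called higher and 0 lower (median 0.44). Among them the synthase *Hmgcs1*, the squalene synthase *Fdft1* and the sterol oxidase *Msmo1* were called at log2 fold changes of 1.26 ± 0.35, 1.13 ± 0.21 and 1.10 ± 0.25 (SE, edgeR adjusted p = 0.0138, 0.000745 and 0.00305). DEN L-CD replicate 3 was the highest library for all 3. *Hmgcs1* lost the call without control replicate 1 or 3 (1.05 to 1.13, adjusted p of 0.0566 to 0.0833), *Fdft1* without control replicate 3 or DEN L-CD replicate 3 (0.93 to 0.98, adjusted p of 0.00347 to 0.00886) and *Msmo1* without control replicate 1 or DEN L-CD replicate 3 (0.93 to 0.97, adjusted p of 0.0129 to 0.0182). The whole list summed to 50628 to 69070 in nonDEN L-CD and 62464 to 105840 in DEN L-CD. Of 21 lipogenic genes 3 were called higher: *Scd2*, above, the transcription factor *Srebf1*, with 1344, 990.1 and 1038 against 3711, 4552, 4887 and 5160 and a log2 fold change of 2.03 ± 0.40 (SE, edgeR adjusted p = 0.00120), and the lipogenesis regulator *Thrsp*, with 2964, 2326 and 2807 against 3502, 11090, 11950 and 10060 and a log2 fold change of 1.76 ± 0.46 (SE, edgeR adjusted p = 0.00921). *Thrsp* was at 1.67 (adjusted p = 0.0549) without control replicate 2. Of the 4 cholesterol synthesis calls 2 stood without control replicate 1, as did the 3 lipogenic calls. Against it alone the log2 fold changes were 1.54 for *Hmgcs1*, 1.153 for *Fdft1* and 1.387 for *Msmo1*. They were 1.777 for *Srebf1*, 2.749 for *Scd2* and 1.635 for *Thrsp*.

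Lipid storage and uptake genes had 6 of 23 members called higher and 1 lower. *Pparg*, the transcription factor of fat storage, had 132, 169 and 103 normalized counts against 262, 431, 429.7 and 379.7, with a log2 fold change of 1.48 ± 0.29 (SE, edgeR adjusted p = 0.00110). The fatty acid transporter *Cd36* had 1632, 1690 and 1470 against 3940, 4836, 3228 and 3564, with a log2 fold change of 1.28 ± 0.37 (SE, edgeR adjusted p = 0.0152), and lost the call without control replicate 2 or 3 (1.23 to 1.33, adjusted p of 0.0537 to 0.0604). The lipid droplet protein *Cidea* had 4.68, 52.9 and 5.73 against 171, 334, 193 and 226, with a log2 fold change of 3.44 ± 1.08 (SE, edgeR adjusted p = 0.0262). Control replicate 2 was far above the other controls, and the call was lost without control replicate 1 or 3 or DEN L-CD replicate 2 (2.96 to 3.21, adjusted p of 0.0579 to 0.106). The acyltransferase *Mogat1* and the lipoprotein receptor *Vldlr* were called at 2.48 ± 0.67 and 1.71 ± 0.60 (SE, edgeR adjusted p = 0.0102 and 0.0452), of which *Mogat1* lost the call without control replicate 3 (2.08, adjusted p = 0.0610) and *Vldlr* without control replicate 2 or 3 or DEN L-CD replicate 1, 2 or 3 (1.48 to 1.76, adjusted p of 0.0617 to 0.161). *Cfd* (adipsin) had 29.2, 46.0 and 36.7 against 495, 263, 222 and 332, with a log2 fold change of 3.13 ± 0.85 (SE, edgeR adjusted p = 0.0108). It was also the called adipocyte marker of 12 tested, whose median log2 fold change was 1.26. The adipocyte list, which includes genes that hepatocytes also express such as *Pck1* and *Car3*, moved with the lipid storage genes: it summed to 121820 to 140240 normalized counts in nonDEN L-CD and 141420 to 152530 in DEN L-CD, and its mean log2 level was 5.79 to 6.21 against 6.997 to 7.60. Neither range overlaps, and the part of adipocytes in these results was not tested. Of the 7 lipid storage calls 6 stood without control replicate 1. Against it alone the log2 fold changes were 1.513 for *Pparg*, 1.26 for *Cd36*, 5.592 for *Cidea*, 2.029 for *Mogat1*, 1.119 for *Vldlr*, 3.492 for *Cfd* and -1.072 for *Plin5*. *Plin5*, which coats droplets in oxidative tissue, was lower, with 1469, 1616 and 1501 against 779.5, 709, 597 and 696 and a log2 fold change of -1.14 ± 0.19 (SE, edgeR adjusted p = 0.000204) that stood in each alternative. In nonDEN L-WD the levels were 435 to 792 for *Pparg*, 4975 to 6912 for *Cd36*, 755 to 1888 for *Cidea* and 618 to 803 for *Plin5*. Among enzymes of other metabolism, *Psph*, the last step of serine synthesis, fell from 184, 314 and 339 to 98.6, 106, 114 and 131 (-1.31 ± 0.20, SE, edgeR adjusted p = 9.76e-05). In the drug metabolism list the 3 of 29 called genes were *Cyp2a5*, above, the glucuronosyltransferase *Ugt2b35* (1.08 ± 0.27, SE, edgeR adjusted p = 0.00610) and the efflux pump *Abcb1a* (1.03 ± 0.33, SE, edgeR adjusted p = 0.0267). *Ugt2b35* lost the call without DEN L-CD replicate 3 (0.97, adjusted p = 0.0198) and *Abcb1a* without control replicate 1 or 2 or DEN L-CD replicate 2 or 3 (0.91 to 0.96, adjusted p of 0.0602 to 0.1098). Of 22 NRF2 targets 1 was called, beside 4.70% of all tested genes, and the list median was 0.44. That gene, *Srxn1*, which repairs oxidized peroxiredoxins, had 717, 4166 and 4626 against 896, 907, 1607 and 1130. Its groups overlapped at control replicate 1, and its change of -1.48 ± 0.45 (SE, edgeR adjusted p = 0.0220) lost the call without control replicate 2 or 3 or DEN L-CD replicate 1 or 2 (-1.11 to -1.39, adjusted p of 0.0582 to 0.135).

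Some lymphocyte markers were higher after DEN. Of 21 lymphocyte markers 7 were called higher and 0 lower, with a median log2 fold change of 0.99. *Themis*, a T cell selection protein, had 9.36, 12.7 and 11.5 normalized counts in nonDEN L-CD and 425, 366, 202 and 321 in DEN L-CD. The lowest DEN L-CD library was 15.9 times the highest control, and the log2 fold change of 4.87 ± 0.67 (SE, edgeR adjusted p = 3.67e-05) stood in each alternative, while nonDEN L-WD had 319.6 to 801. The T cell receptor subunits *Cd3d*, *Cd3e* and *Cd3g*, with 0 of 3 called, did not show a change of that size. Their log2 fold changes were 0.61 ± 0.77, 0.08 ± 0.52 and 0.21 ± 0.46 (SE, edgeR adjusted p = 0.609, 0.936 and 0.778). The B cell receptor subunit *Cd79a* had 9.36, 1.15 and 12.6 against 64.7, 34.9, 18.2 and 23.2, with a log2 fold change of 2.18 ± 0.51 (SE, edgeR adjusted p = 0.00392). *Cd2*, an adhesion receptor of T and NK cells, had 8.19, 3.45 and 9.16 against 29.7, 22.9, 26.7 and 13.4, with a log2 fold change of 1.73 ± 0.42 (SE, edgeR adjusted p = 0.00534). The B cell genes *Ms4a1* (CD20) and *Cd79b* lost the call without control replicate 2 (2.09, adjusted p = 0.0543) and without control replicate 2 or 3 (1.47 to 1.53, adjusted p of 0.0622 to 0.0673), respectively. The T cell coreceptor *Cd8a* lost it without control replicate 1, 2 or 3 or DEN L-CD replicate 1, 2 or 3 (1.87 to 2.69, adjusted p of 0.0527 to 0.109), and the granule protease *Gzma* without control replicate 1, 2 or 3 or DEN L-CD replicate 2 or 3 (1.23 to 2.34, adjusted p of 0.0623 to 0.239). The summed level of the 21 markers was 584 to 4127 in nonDEN L-CD and 2063 to 13405 in DEN L-CD, the highest value being DEN L-CD replicate 1. Of the 7 calls 5 stood without control replicate 1. Against it alone the log2 fold changes were 5.123 for *Themis*, 2.987 for *Cd8a*, 2.23 for *Ms4a1*, 1.911 for *Cd79a*, 1.609 for *Gzma*, 1.496 for *Cd2* and 0.9885 for *Cd79b*. Blood cell markers, with a median log2 fold change of 0.89 and 1 of 10 called, moved in the same direction, with sums of 10694 to 14041 in nonDEN L-CD and 17551 to 36344 in DEN L-CD that do not overlap, and their part in the lymphocyte result was not tested.

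Of 9 tested neutrophil markers (13 listed) 3 were called lower. The gelatinase-granule protein *Retnlg* had 8.19, 28.8 and 57.3 against 6.36, 7.23, 7.28 and 2.44, with a log2 fold change of -2.40 ± 0.63 (SE, edgeR adjusted p = 0.00917), and was at -1.64 (adjusted p = 0.107) without control replicate 3. The receptor *Cxcr2* and the collagenase *Mmp8* overlapped between groups, with changes of -1.40 ± 0.46 and -2.75 ± 0.78 (SE, edgeR adjusted p = 0.0324 and 0.0149). *Cxcr2* lost the call without control replicate 2 or 3 or DEN L-CD replicate 1, 2 or 4 (-1.11 to -1.43, adjusted p of 0.0579 to 0.175) and *Mmp8* without control replicate 2 or 3 (-2.25 to -2.62, adjusted p of 0.0563 to 0.0846). All 3 calls stood without control replicate 1, 0 stood against it alone, and 0 stood without DEN L-CD replicates 3 and 4. The defining markers *Ly6g* and *Camp* were at 0 in all 7 libraries. The summed level of the list was 172 in control replicate 1, 402 in replicate 2, 552 in replicate 3 and 186 to 357 in DEN L-CD. It thus moved with the acute phase genes across the controls, and its part in their result was not tested.

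Interferon-stimulated genes had 5 of 25 members called higher and 0 lower (median 0.71). *Usp18*, a feedback inhibitor of the type I interferon receptor, had 98.3, 89.7 and 131 normalized counts against 300.1, 295, 187 and 205, with a log2 fold change of 1.22 ± 0.24 (SE, edgeR adjusted p = 0.000913). It was the only 1 of the 5 whose call stood with each single library left out or without control replicate 1. Against that library alone the log2 fold changes were 1.335 for *Usp18*, 1.28 for *Ifit1*, 1.326 for *Ifit3*, 1.215 for *Ifi44* and 1.053 for *Gbp3*. *Ifit1*, *Ifit3*, *Ifi44* and *Gbp3* were called at log2 fold changes of 1.02 to 1.17, close to the threshold. *Ifit1* lost the call without control replicate 1 or 2 or DEN L-CD replicate 1 (0.83 to 1.10, adjusted p of 0.0656 to 0.117), *Ifit3* without control replicate 1 or 2 or DEN L-CD replicate 1 or 2 (0.89 to 0.95, adjusted p of 0.0211 to 0.0571), *Ifi44* without control replicate 1, 2 or 3 or DEN L-CD replicate 1, 2 or 4 (0.99 to 1.30, adjusted p of 0.0698 to 0.177) and *Gbp3* without control replicate 1 or 2 or DEN L-CD replicate 1 or 2 (0.77 to 0.99, adjusted p of 0.0420 to 0.108). For MHC class II 2 of 14 were called higher, the transactivator *Ciita* (1.25 ± 0.34, SE, edgeR adjusted p = 0.0100) and *H2-Oa* (2.09 ± 0.54, SE, edgeR adjusted p = 0.00842). *Ciita* lost the call without control replicate 2 (1.10, adjusted p = 0.0680) and *H2-Oa* without control replicate 2 (1.74, adjusted p = 0.0640). Of 16 markers of recruited macrophages, the elastase *Mmp12* (2.28 ± 0.67, SE, edgeR adjusted p = 0.0185) and the fractalkine receptor *Cx3cr1* (1.60 ± 0.57, SE, edgeR adjusted p = 0.0498) were called higher. *Mmp12* lost the call without control replicate 1 or 2 or DEN L-CD replicate 1 (1.85 to 2.08, adjusted p of 0.0631 to 0.0927) and *Cx3cr1* without control replicate 2 or 3 or DEN L-CD replicate 1, 2, 3 or 4 (1.36 to 1.72, adjusted p of 0.0541 to 0.195). The fibrogenic, endothelial, bile duct and Kupffer cell lists had 0 calls. *Hba-a1*, an alpha globin, was the called blood cell gene of 10 (1.17 ± 0.36, SE, edgeR adjusted p = 0.0225), lost without control replicate 1, 2 or 3 or DEN L-CD replicate 2 (0.79 to 1.21, adjusted p of 0.0501 to 0.112).

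Some of the largest increases were of genes known from other tissues. *Krt4*, a keratin of squamous epithelium, had 0, 1.15 and 2.29 normalized counts against 74.2, 21.7, 365 and 386, and *Rptn*, a protein of cornified cells, had 0, 0 and 0 against 40.3, 25.3, 187 and 316. DEN L-CD replicates 3 and 4 held the highest values of both. The ratio was 183 (62.7 to 889 by counting error, from 3 control counts) for *Krt4* and at least 123 for *Rptn*, against 3 counts over the group, and both calls were lost without any 1 control library and without DEN L-CD replicate 3 or 4 (adjusted p of 0.0557 to 0.117 for *Krt4* and 0.0644 to 0.130 for *Rptn*). Of 18 tested genes of keratinized squamous epithelium, a list chosen after the values were seen, 10 were called higher and 1 lower, and these calls were not counted again with control replicate 1 alone or left out. The squamous list summed to 336 to 1448 in nonDEN L-CD and 586 to 2511 in DEN L-CD. Acinar pancreas genes, with 0 of 24 called, summed to 236 to 50174 in nonDEN L-CD and 1522 to 88485 in DEN L-CD. Without DEN L-CD replicates 3 and 4, 601 genes were called in place of 734. Both sums overlapped between the groups. The squamous genes nevertheless had a median log2 fold change of 7.04, and their mean log2 level was 0.75, 1.11 and 1.15 in nonDEN L-CD and 2.71, 2.28, 4.46 and 4.79 in DEN L-CD, which does not overlap. In nonDEN L-WD it was 3.83, 3.67, 1.10 and 0.90. The part of these tissues in the calls of liver genes was not tested.

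Further genes of large change were liver or signalling genes outside the lists. *Osbpl3*, an oxysterol-binding protein, had 102, 59.8 and 38.95 normalized counts against 528, 886, 749 and 597, with a log2 fold change of 3.37 ± 0.32 (SE, edgeR adjusted p = 8.28e-07). The orphan nuclear receptor *Esrrg* had 19.9, 4.60 and 6.87 against 134, 115, 71.6 and 107, with a log2 fold change of 3.34 ± 0.71 (SE, edgeR adjusted p = 0.00196). *Lrtm1* and the lectin *Clec2h* were at 3.69 ± 0.82 and 3.28 ± 0.89 (SE, edgeR adjusted p = 0.00290 and 0.0110), the latter at 3.03 (adjusted p = 0.0649) without control replicate 2. In nonDEN L-WD the levels of *Osbpl3* (819 to 1474) and *Esrrg* (91.6 to 241) reached or passed those of DEN L-CD. Among decreases *Tacc2*, a centrosomal protein, had 1159, 3156 and 3198 against 522, 394, 442 and 477, with a log2 fold change of -2.45 ± 0.22 (SE, edgeR adjusted p = 5.43e-07), the smallest adjusted p of all named genes. The synaptotagmin *Syt12* had 60.8, 501 and 853 against 50.9, 20.5, 25.5 and 51.3, with a log2 fold change of -3.66 ± 0.53 (SE, edgeR adjusted p = 5.05e-05), and the ferritin receptor *Scara5* had 930.0, 1889 and 2407 against 329.9, 109.6, 85.0 and 188, with a log2 fold change of -3.28 ± 0.88 (SE, edgeR adjusted p = 0.0102). For *Tacc2*, *Syt12* and *Scara5* control replicate 1 was the lowest control and still above every DEN L-CD library. *Ttll8*, a tubulin glycylase, was called at -2.96 ± 0.50 and *Gtpbp4-ps1*, a pseudogene with 83.0% shared sequence, at -2.57 ± 0.65 (SE, edgeR adjusted p = 0.000252 and 0.00723). The retinoic acid hydroxylase *Cyp26b1* and the glucuronosyltransferase *Ugt2b37* were lower, at -2.38 ± 0.65 and -2.49 ± 0.60 (SE, edgeR adjusted p = 0.0115 and 0.00497), and at -2.04 (adjusted p = 0.0699) and -1.77 (adjusted p = 0.0706) without control replicate 2.

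The same injection was then examined on the western diet, in libraries that are not part of the control-diet contrast but share its fit and its estimate of the spread. The injected western-diet tissue is liver beside dissected tumors, which the control-diet tissue is not, so that diet and peritumoral origin cannot be told apart in any difference between the contrasts. DEN PT-WD differed from nonDEN L-WD in 432 genes (2.76%), 368 higher (2.36%) and 64 lower (0.410%). Of the genes called on the control diet, 58 were higher on both diets and 6 lower on both, which is 8.72% of the control-diet calls and 14.8% of the western-diet calls. A further 7 were lower on the control diet and higher on the western diet, and 1 the reverse. The genes higher on the control diet had a median log2 fold change of 0.34 on the western diet, and those lower had one of -0.07. The difference of the 2 changes, tested as an interaction, was called for 430 genes (2.75%), of which 279 were among the 734. This difference contains the control-diet contrast and uses the same nonDEN L-CD libraries. The overlap with the 734 genes is therefore a description and no separate evidence. No fit with nonDEN L-CD replicate 1 as the only control was run for the difference.

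*Cyp2a4*, *Cyp2b9*, *Afp*, *H19* and *Akr1c18* were called higher in DEN tissue on both diets. *Cyp2a4* changed by 6.74 ± 1.12 on the western diet and *Cyp2b9* by 5.72 ± 0.93 (SE, edgeR adjusted p = 0.00134 and 0.00105). *Afp* changed by 5.05 ± 0.76, *H19* by 4.19 ± 0.65 and *Akr1c18* by 8.69 ± 1.37 (SE, edgeR adjusted p = 0.000721, 0.000822 and 0.000844). For these 5 genes the difference between diets did not pass the test, with values from -4.03 ± 2.04 for *Cyp2a4* to 2.97 ± 2.89 for *Akr1c18* (SE, edgeR adjusted p = 0.230 and 0.566). Such wide intervals do not show that the changes are equal. On the western diet 8 of 22 female-predominant and 16 of 24 oncofetal genes were called higher, beside 4 and 6 on the control diet, in groups of other sizes, and the difference between the contrasts was called for 1 and 3 of these genes. Of the male-predominant genes 7 of 23 were called lower there, among them *Elovl3* at -1.40 ± 0.22 and *C4a* at -1.45 ± 0.25 (SE, edgeR adjusted p = 0.000822 and 0.00137).

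*Cyp7a1*, *Themis*, *Osbpl3* and *Tacc2*, by contrast, were near 0 on the western diet, at 0.22 ± 0.31, 0.19 ± 0.36, 0.23 ± 0.21 and -0.01 ± 0.17, and the difference passed the test for each (log2 differences -3.39 ± 0.52, -4.68 ± 0.76, -3.14 ± 0.37 and 2.44 ± 0.28, SE, edgeR adjusted p = 0.000541, 0.000859, 4.40e-05 and 2.97e-05). Of the acute phase genes 1 of 27 was called on the western diet, higher, and the difference passed the test for 11 of 27. That test reuses the nonDEN L-CD libraries, in which replicate 1 was far below the other controls for *Saa2* and *Mt2*. *Saa2* differed between diets by 5.40 ± 1.23 and *Steap4* by 2.07 ± 0.39 (SE, edgeR adjusted p = 0.00886 and 0.00280). *Mt2* differed by 8.49 ± 1.497 (SE, edgeR adjusted p = 0.00159) and was called higher on the western diet (2.87 ± 0.95, adjusted p = 0.0495) and lower on the control diet. The heat shock genes *Hspb1* and *Hsp90aa1* differed by 2.37 ± 0.40 and 1.14 ± 0.26 (SE, edgeR adjusted p = 0.00123 and 0.00824), and *Creld2* by 2.14 ± 0.48 (SE, edgeR adjusted p = 0.00788), whereas for the ER chaperones *Hspa5* and *Hyou1* the difference did not pass it (1.03 ± 0.49 and 1.27 ± 0.43, SE, edgeR adjusted p = 0.196 and 0.0666). The count of genes called on the western diet was 201 without nonDEN L-WD replicate 4 and 604 without DEN PT-WD replicate 6, and the count of genes whose change differed was 232 without nonDEN L-CD replicate 2 and 600 without nonDEN L-CD replicate 1.

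**Figure D5:**
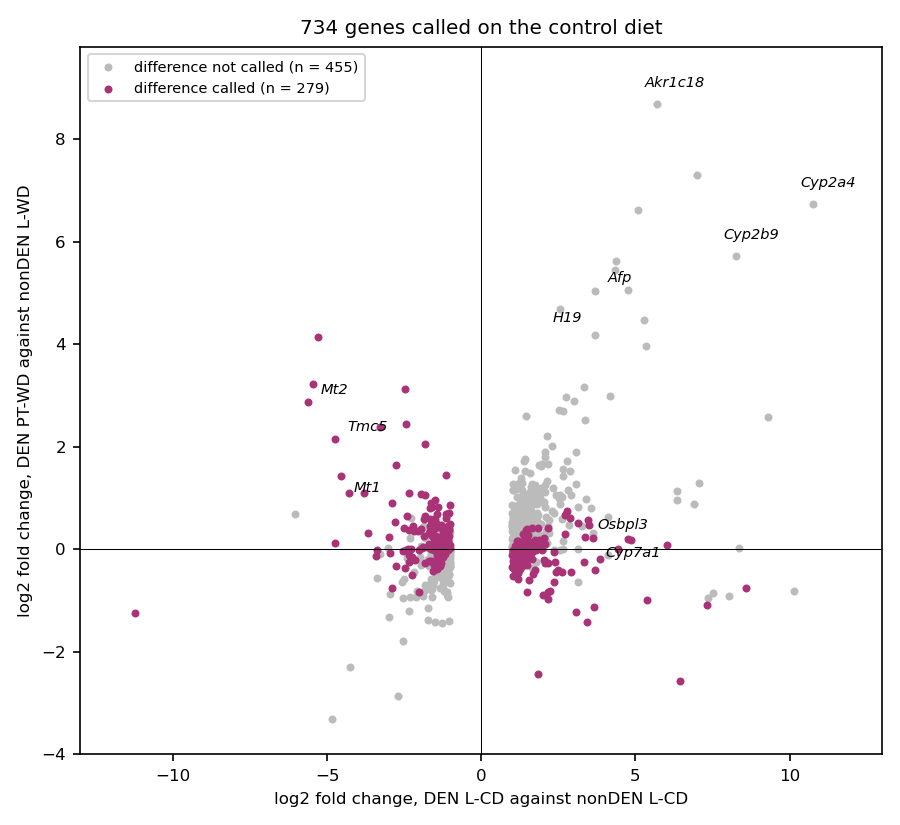
Log2 fold change of DEN PT-WD (n = 8) over nonDEN L-WD (n = 4) on the vertical axis against that of DEN L-CD (n = 4) over nonDEN L-CD (n = 3) on the horizontal axis, with 1 point for each of the 734 genes called on the control diet, of which the 279 whose difference between diets was called are in purple. *Cyp2a4* (6.74 on the western and 10.77 on the control diet) and *Akr1c18* (8.69 and 5.71) are high on both axes, while *Cyp7a1* (0.22 and 3.61) and *Osbpl3* (0.23 and 3.37) lie near 0 on the western diet.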

How the data were processed

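Polyadenylated RNA was sequenced from a single end in 25 samples of liver or liver tumor. Groups and replicate numbers were taken from the sample labels, and the dose of DEN is that of the study's methods. The authors checked reads with FastQC, aligned them to GRCm38 with STAR and ran RSEM. The expected counts deposited for 48795 genes are RSEM's estimates, not normalized, in which a read that matches several genes is divided between them. The TPM values the authors deposited are transcript shares corrected for gene length and are not printed here. The STAR and RSEM versions, the gene annotation and the use of strand are not given in the sources used here.

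Expected counts were rounded and fitted with edgeR 4.0.16 in R 4.3.3 (TMM, filterByExpr with a minimum count of 10 and the 5 groups, glmQLFit and glmQLFTest) over all 25 libraries in 5 groups, with Benjamini-Hochberg adjustment over 15625 genes. SE is the absolute log2 fold change over the root of the F statistic. DESeq2 1.42.0 was an alternative, as were its size factors, no filter on low counts, no minimum fold change, fits of only the groups compared, the replicate number as a block, and each library left out. A further 2 settings were added after seeing the data: nonDEN L-CD replicate 1 as the only control, and DEN L-CD libraries 3 and 4 left out. Counts were also simulated for all 25 libraries from the nonDEN L-CD means (14534 genes tested), with 200 genes changed in DEN L-CD only. In a fit of all 5 groups 193 of these were recovered (96.5%), with 4 others called. No library was made to stand apart as nonDEN L-CD replicate 1 did, so that the share recovered does not cover that case. No pair of libraries differed by as little as sampling noise, the smallest chi-square per gene in the series being 29.1.

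The text names the 15 genes of largest increase and the 15 of largest decrease among called genes with a mean of 100 or more normalized counts in the higher group, no overlap between groups and no predicted gene name, any member of the 43 gene lists, and the 5 genes of largest difference between diets. The lists hold 829 genes, of which 828 were found and 817 tested. Comparison, lists, motifs and genes were chosen with earlier results of these data known, so that counts over lists are descriptions and no list was tested. Some list members that enter these counts are not reported here by name. A ratio against a group at 0 was computed against 3 counts over the group, and 95% intervals of ratios cover counting error only. Promoters are from RefSeq (GRCm38.p6), and gene coordinates are those of GENCODE M21 on GRCm38. Shared sequence is the percent of a gene's words of 50 bases that occur in transcripts of other genes. Python 3.11.15, NumPy 2.4.6, pandas 2.3.3, SciPy 1.17.1, Biopython 1.88 and Matplotlib 3.10.9 were used.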

Additional observations from a re-analysis of the deposited data

Results flagged for a closer look

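Among 122 genes examined, 7 had a DEN L-CD library far from the other 3 of its group, by Dixon's criterion, and chance alone gives about 1 in 20 such groups. Replicate 1 was low for *Peg3* (98.6 normalized counts) and *Thrsp* (3502) and high for *Junb* (924), replicate 2 was low for the chaperone cofactor *Sdf2l1* (324) and *Cyp2c69* (10.8) and high for the globin gene *Hba-a1* (5612), and replicate 4 was low for *Retnlg* (2.44).

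The change after DEN differed between the control-diet and western-diet contrasts in 430 genes by the interaction test, in which diet and peritumoral tissue cannot be told apart. The 5 of largest difference among called, non-predicted genes averaging 100 or more normalized counts in their higher group were *Mt2* (8.49 on the log2 scale), the channel-like gene *Tmc5* (6.87), *Cyp2c69* (6.54), *Mt1* (5.99) and the adenylate cyclase *Adcy1* (5.59). *Tmc5* had 93.6, 123 and 328 normalized counts in nonDEN L-CD and 9.55, 3.62, 6.07 and 7.33 in DEN L-CD, against 1.03 to 20.5 over nonDEN L-WD and 8.42 to 112 over DEN PT-WD. *Cyp2c69*, a P450 of which 54.3% of the sequence is shared with near copies, had 77.2, 101 and 63.0 and 32.9, 10.8, 40.1 and 36.6 on the control diet, against 11.7 to 26.5 and 20.4 to 1802 on the western diet. Its difference (edgeR adjusted p = 0.0429) was no longer called in 14 of the fits with 1 library left out, the adjusted p reaching 0.106 without nonDEN L-CD replicate 2. *Adcy1* had 37.4, 323 and 204 and 22.3, 6.02, 24.3 and 84.2 on the control diet, against 1.89 to 19.5 and 26.6 to 185 on the western diet.

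In tumors, which are in neither contrast but enter the shared fit, 9 of the 15 genes of largest increase were above every nonDEN L-CD library in all 6 DEN T-WD libraries. The genes were chosen for low nonDEN L-CD levels, so that this count is a description. These were *Osbpl3*, *Cyp7a1*, *Themis*, *Cyp2a4*, *Cyp2b9*, *H19*, *Afp*, *Akr1c18* and *Clec2h*. Tumor levels were 50338 to 74558 normalized counts for *Cyp2a4*, 1096 to 2612 for *Afp*, 552 to 3797 for *H19* and 271 to 7362 for *Akr1c18*. For *Cyp7a1* they were 2085 to 3811 and for *Themis* 163 to 595. Uninjected western-diet liver was also above the nonDEN L-CD libraries for *Cyp7a1* (5555 to 12643), *Themis* (319.6 to 801) and *Osbpl3* (819 to 1474).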

How the results depend on the processing

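The count of 734 genes called on the control diet was 729 with DESeq2 size factors, 800 with DESeq2's Wald test, 654 with no filter on low counts and 724 in a fit of only the groups compared. With no minimum fold change it was 3327, and the counts of list members, of western-diet genes and of genes whose change differed became 176, 1933 and 1311, from 104, 432 and 430. With 1 library left out, the count on the control diet ran from 430 (without nonDEN L-CD replicate 2) to 842 (without nonDEN L-CD replicate 1), that of list members from 63 to 104, that on the western diet from 201 to 604 and that of the difference from 232 to 600. Against nonDEN L-CD replicate 1 alone, where the lone control is assumed to vary like the other groups, 115 genes and 14 list members were called. Replicate numbers are shared between groups, but nothing says that they mark a shared animal, litter or day. Same-numbered control-diet libraries deviated together with correlations of 0.087, 0.052 and 0.307. Differently numbered libraries were not compared, so that a shared litter, day or batch was not tested. With the replicate number as a block, 308 genes, 49 list members and 165 western-diet genes were called, in place of 724, 124 and 367 in the same groups without it, and 460 for the difference.

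Of 121 named genes called on the control diet, 59 kept the call with each single library left out and 13 under each setting run (*Creld2*, *Cyp7a1*, *Hsp90aa1*, *Hspb1*, *Hsph1*, *Hyou1*, *Nfil3*, *Osbpl3*, *Plin5*, *Robo1*, *Tacc2*, *Themis* and *Ttll8*). The direction turned only against nonDEN L-CD replicate 1 alone and in 7 genes, at log2 fold changes of 0.16 for *Slc39a10*, 0.59 for *Saa2*, 0.62 for *Cdkn1a*, 0.67 for *Srxn1*, 0.69 for *Orm2*, 0.44 for *Cxcr2* and 1.73 for *Lcn2*. The causes were not tested. Depth limits genes with few counts, such as *Cyp2b9* with 2 and *Rptn* with 0 control counts in all.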

Other observations

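Pericentral hepatocyte genes, which are expressed around the central vein, summed to 227250 to 267020 normalized counts in nonDEN L-CD and 291980 to 333120 in DEN L-CD, with a median log2 fold change of 0.26 over 21 genes and 0 called. These sums did not overlap, and no test of a summed level was run. The sums of respiratory chain subunits (119450 to 129980 against 124520 to 135580), Kupffer cell markers (13134 to 19170 against 16346 to 25565) and bile duct markers (7644 to 20264 against 10869 to 13909) overlapped.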
